A study of Mus musculus with 10 samples.

Results

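The proteasome is the barrel-shaped protease that cuts up proteins tagged with ubiquitin. Its genes were described here in mouse Leydig cells, which make testosterone in the tissue between the tubules of the testis. Members were taken by symbol, as every gene whose name is Psma, Psmb, Psmc, Psmd, Psme, Psmf or Psmg followed by a digit. Of 25239 symbols in the count table, 50 matched. The 3 catalytic subunits of the immunoproteasome, Psmb8, Psmb9 and Psmb10, were left out and no symbol of a pseudogene was among the matches, which gave 47 members. They comprised 16 genes of the core, 17 of the 19S cap, 6 other activators and inhibitors, 7 assembly chaperones and Psmc3ip, which matched by symbol alone.

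Sequencing covered 4 groups with 10 libraries in all. The line MLTC-1, derived from a Leydig cell tumour of the mouse, had been given hymeglusin (n = 3) or its control DMSO (n = 3). Hymeglusin blocks the cytosolic HMG-CoA synthase, which makes the precursor of cholesterol. Primary Leydig cells, with no treatment, were isolated from mouse testes at 24 months (n = 2) or 2 months (n = 2) of age. The dose and duration of hymeglusin, the strain of the mice, the way the primary cells were isolated and any pooling of animals are missing from the labels. Nothing in the labels tells whether replicates are separate cultures or animals, so each p-value rests on a spread between libraries that may be technical.

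The core is a stack of 4 rings. The outer rings are built of alpha subunits, which gate the entry, and the inner rings of beta subunits. Psmb6, Psmb5 and Psmb7 carry the caspase-like, chymotrypsin-like and trypsin-like cutting sites. The 19S cap binds ubiquitin chains, strips them off and unfolds the substrate with a ring of 6 ATPases, Psmc1 to Psmc6. In mammalian cells the transcription factor Nfe2l1 raises proteasome genes together when proteasome activity is short, through antioxidant response elements in their promoters. The testis has its own alpha subunit, Psma8, which replaces Psma7 in germ cells. The activator Psme4, also named PA200, is needed for normal spermatogenesis in mice.

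Library totals ranged from 17407456 to 34787330 counts. The spread between replicates, as the biological coefficient of variation over all genes, was 0.0509 for hymeglusin against DMSO and 0.307 for 24 against 2 months. It was 0.103 for MLTC-1 with DMSO against 2 months. The Leydig markers Cyp11a1, Cyp17a1, Hsd3b1, Star, Insl3 and Lhcgr had at least 1714 counts in every library, but Hsd17b3, the enzyme of the last step to testosterone, had 2, 9 and 4 counts with hymeglusin and 0, 0 and 1 with DMSO, against 13260 to 26309 in the primary cells. Hsd3b6 had 24 to 99 counts in MLTC-1. Spermatid markers, 9 of 9 of them with counts in every primary cell library, summed to 10847 and 5682 CPM (counts scaled to library size) at 24 months, against 1742 and 2362 CPM at 2 months. Their median log2 fold change at 24 over 2 months was 2.01, and 0.62 with the offset for transcript length used below. In MLTC-1 their sum stayed below 1 CPM, and Akap4 and Tnp2 had 0 counts in all 6 libraries. Macrophage markers summed to 158 and 159 CPM at 24 months, against 22.1 and 23.6 CPM at 2 months. Cd14 had the most counts of them at 24 months, 1336 and 2486, against 219 and 210 at 2 months. Of the 10, 8 had a log2 fold change above 0 at 24 over 2 months and 2 below 0. In MLTC-1 they summed to 2.73 to 3.41 CPM with hymeglusin, against 0.531 to 1.07 CPM with DMSO. Csf1r had 77, 79 and 66 counts with hymeglusin there, against 9, 10 and 2 with DMSO. Adgre1, C1qa, C1qb, C1qc, Mrc1 and Cd163 had 0 to 4 counts in every MLTC-1 library. In bulk RNA, fewer cells of a type and less RNA per cell cannot be told apart.

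Promoters of 39 of the 47 members were found in the RefSeq table of GRCm38.p6, the assembly that corresponds to mm10. Each window ran from 250 bases before to 50 after the gene's start and was searched on both strands. The antioxidant response element core TGACNNNGC occurred for 6 of the 39 (15.4%), against 14.0% of 27025 genes. TGAGNNNGC, the other form of that core, occurred for 13 of 39 (33.3%), against 19.9% of all genes. CCAAT occurred for 14 of 39 (35.9%), against 41.1%. A match is a description of these letters, not a site of binding.

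The 80 bases that end just before the start of 4 members are shown, since these genes hold a match there and moved in different ways in the comparisons. Psmb5 is the chymotrypsin-like catalytic subunit (chr14:54617996-54618075, minus strand) and Psmd9 an assembly chaperone of the cap (chr5:123228110-123228189, plus strand). Psmb3 is a structural beta subunit (chr11:97703354-97703433, plus strand) and Psmd12 a lid subunit of the cap (chr11:107479448-107479527, plus strand). Sequences run 5′ to 3′ on the strand of the gene, and the capitals mark the match. It is TGACNNNGC, 47 bases before the start of Psmb5 and 31 before that of Psmd9, and TGAGNNNGC, 10 bases before the start of Psmb3 and 28 before that of Psmd12.
Psmb5: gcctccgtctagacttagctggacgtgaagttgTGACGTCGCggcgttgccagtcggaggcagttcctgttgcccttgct
Psmd9: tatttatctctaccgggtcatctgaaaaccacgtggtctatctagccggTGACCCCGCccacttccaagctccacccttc
Psmb3: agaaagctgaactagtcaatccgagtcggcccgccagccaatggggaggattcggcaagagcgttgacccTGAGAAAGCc
Psmd12: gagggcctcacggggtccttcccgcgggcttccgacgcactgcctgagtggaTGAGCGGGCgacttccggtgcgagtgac

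Members together took 0.804%, 0.789% and 0.782% of all counts with hymeglusin and 0.810%, 0.782% and 0.785% with DMSO. They took 0.792% and 0.733% at 24 months, against 0.554% and 0.543% at 2 months. The MLTC-1 groups overlapped, and both 24-month libraries stood above both 2-month libraries.

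To compare genes with each other, CPM scaled over all 10 libraries was divided by the length in kb of the longest transcript. Leaving out Psma8 and Psmb11, which are restricted to germ cells and thymus, the median of the other 14 core genes was 125 CPM per kb with hymeglusin, 131 with DMSO, 183 at 24 months and 94.7 at 2 months. The median of the 17 cap genes was 104 with hymeglusin, 108 with DMSO, 82.6 at 24 months and 55.7 at 2 months. Subunits that stand in equal numbers in the particle were thus far from equal in RNA. Levels of the 14 core genes spanned 8.49-fold with hymeglusin, 7.57-fold with DMSO, 5.93-fold at 24 months and 4.16-fold at 2 months. Psma2, an alpha subunit, was lowest in 3 groups, at 33.8 with hymeglusin, 35.6 with DMSO and 40.1 CPM per kb at 2 months, while Psma3 was lowest at 24 months (66.3 CPM per kb). Psmb4, a structural beta subunit, was highest in the same 3 groups, at 287, 269 and 167 CPM per kb, and Psmb6 at 24 months with 393 CPM per kb.

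Within the cap, the lid subunit Psmd11 was lowest in all 4 groups, at 16.6 with hymeglusin, 18.6 with DMSO, 19.3 at 24 months and 22.7 CPM per kb at 2 months. Psmd2, the large scaffold of the base that receives ubiquitin shuttles, was highest in MLTC-1, at 297 with hymeglusin and 295 CPM per kb with DMSO. In primary cells the ATPase Psmc3 was highest, at 246 at 24 months and 141 CPM per kb at 2 months. The highest core gene depended on the transcript taken, since with the principal transcript of each gene it was Psmb7 in MLTC-1 (308 CPM per kb with hymeglusin and 334 with DMSO) and Psmb3 at 24 months (509 CPM per kb). The lowest core and cap genes were the same with the principal transcript. Psmd11 and Psma3 were no longer lowest with the median transcript length. Their median lengths are 655 and 875 bases, against 2975 and 2846 for the longest.

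**Figure D1:**
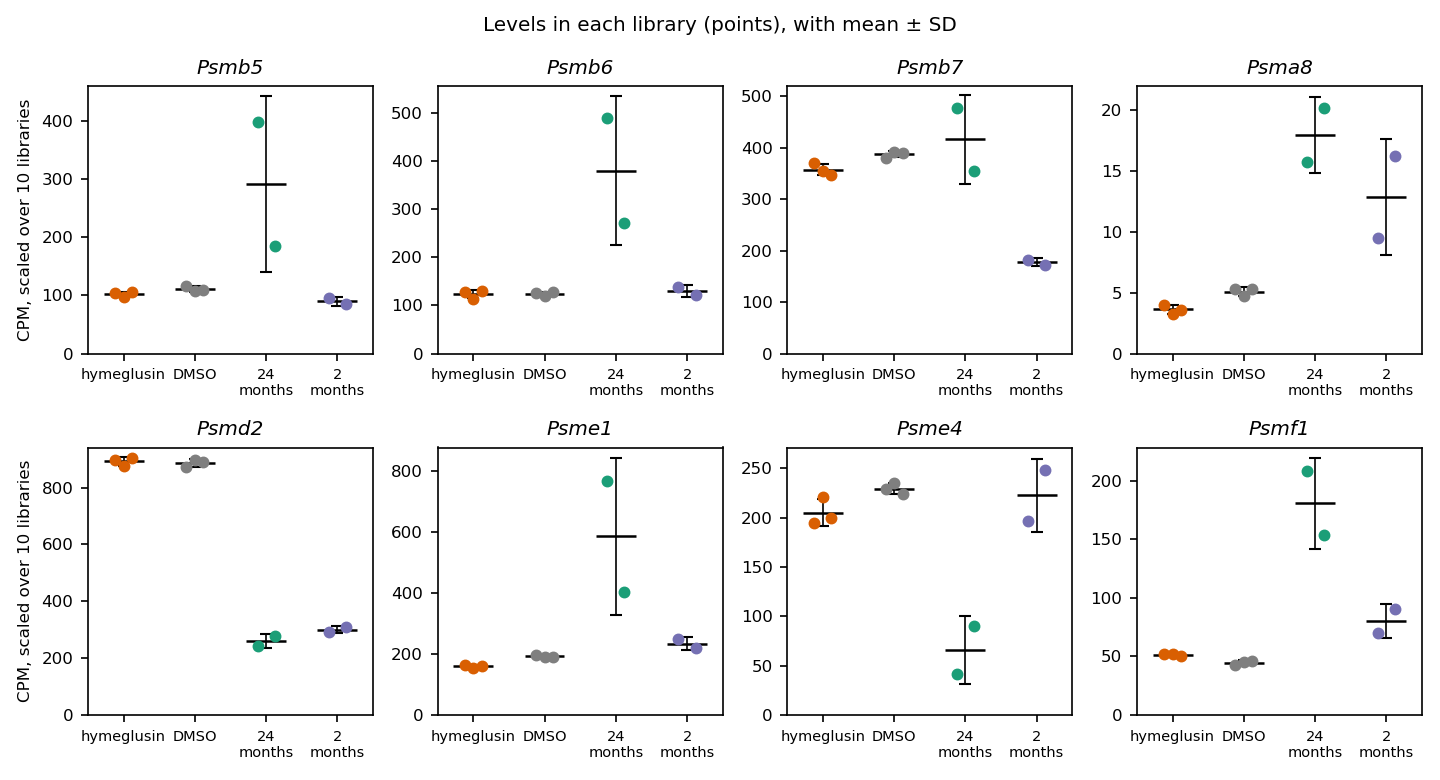
Levels of 8 members in each library as CPM scaled over all 10 libraries (vertical axes from 0, each panel on its own scale), with points for libraries and bars for mean ± SD in hymeglusin and DMSO (n = 3 each), 24 months and 2 months (n = 2 each). Psmb5, Psmb6, Psme1 and Psmf1 stand higher at 24 than at 2 months and Psme4 lower, while the 2 libraries at 24 months lie far apart for Psmb5, Psmb6 and Psme1; Psmd2 is high in both MLTC-1 groups.

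The summed core level per kb was 1750, 1684 and 1721 with hymeglusin, 1857, 1758 and 1746 with DMSO, and 3387 and 2412 at 24 months, against 1415 and 1284 at 2 months. The summed cap level per kb was 1906, 1870 and 1935 with hymeglusin, 1885, 1869 and 1868 with DMSO, and 1827 and 1527 at 24 months, against 1171 and 1147 at 2 months. MLTC-1 with DMSO and the 24-month cells thus stood above the 2-month cells in both sums, in every library.

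The ratio of the core sum to the cap sum differed between the groups. It was 0.918, 0.901 and 0.890 with hymeglusin, 0.985, 0.941 and 0.935 with DMSO, and 1.85 and 1.58 at 24 months, against 1.21 and 1.12 at 2 months. No 2 groups overlapped, and the order from high to low was 24 months, 2 months, DMSO and hymeglusin. The same order of group means held with the median transcript, with the principal transcript and with CPM not divided by length, although hymeglusin and DMSO libraries overlapped with the median transcript. Each gene's length was the same in all libraries. A trend on length that differs between libraries, as given below for the ages, therefore stays in this ratio. With an offset for that trend, the median log2 fold changes of core and cap were 0.03 and -0.19 at 24 over 2 months. They were 0.90 and 0.44 without it. In MLTC-1 with DMSO over 2 months, the medians of core and cap were 0.46 and 0.63 without the offset. With it they were 2.46 and 2.04, so the median of the core was then the higher. That offset left a trend on length among the members, as given below. The place of DMSO below 2 months in the ratio thus also depends on how length is treated. No test was run on this ratio.

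**Figure D2:**
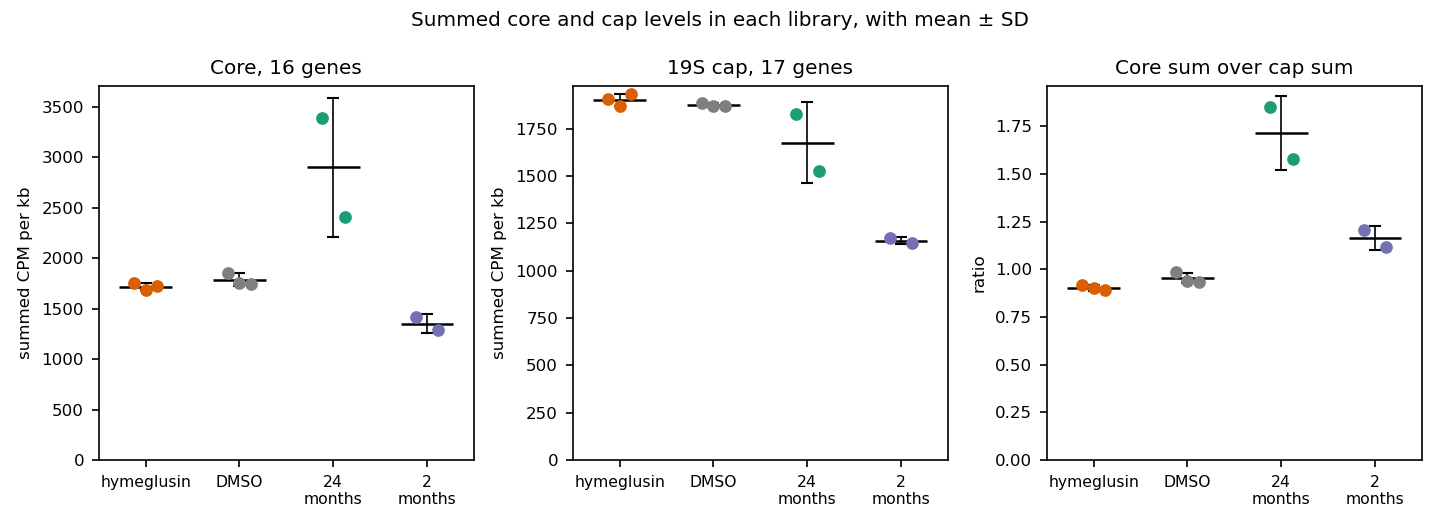
Summed level of 16 core genes (left) and 17 cap genes (middle) as CPM per kb of the longest transcript, and the ratio of the sums (right), for each library in 4 groups, with bars for mean ± SD and axes from 0. The ratio is 1.85 and 1.58 at 24 months, against 1.21 and 1.12 at 2 months, and below 1 in all 6 MLTC-1 libraries. Trends on transcript length that differ between libraries were not removed.

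With hymeglusin, most of the core and part of the cap fell by small steps. Of 46 members tested in MLTC-1, 26 fell and 3 rose, where 24.5% of all 12873 tested genes fell and 23.8% rose (edgeR quasi-likelihood F-test, Benjamini-Hochberg adjusted p below 0.05 over all tested genes). The groups did not overlap in 26 members that were lower and 4 that were higher, where 27.3% and 27.7% of all tested genes did so. The median log2 fold change of the members was -0.15, against 0.01 over all tested genes. All 8 alpha ring genes fell (median log2 -0.18), as did 4 of 7 beta ring genes, 8 of 17 cap genes and 5 of 6 activators and inhibitors. The largest change was that of Psmc3ip, which is no proteasome subunit. Psmb11, the beta subunit of the thymus, had 2, 0 and 2 counts with hymeglusin and 4, 0 and 0 with DMSO and 4 and 4 at 24 months, against 0 and 0 at 2 months, and was not tested in any comparison.

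Among the catalytic subunits, Psmb5 stood at 106, 98.7 and 104 CPM with hymeglusin and 125, 114 and 117 CPM with DMSO. Psmb7 stood at 376, 360 and 346 CPM with hymeglusin and 408, 414 and 420 CPM with DMSO. Every hymeglusin library lay below every DMSO library for both genes, and both fell by 0.20 on the log2 scale (SE 0.053, adjusted p = 0.00171 for Psmb5; SE 0.046, adjusted p = 0.000555 for Psmb7). Psmb6 stood at 129, 115 and 129 CPM with hymeglusin and 134, 127 and 136 CPM with DMSO, groups that overlapped (log2 -0.09, SE 0.053, adjusted p = 0.156). Of the structural beta subunits, Psmb1 showed the lowest fold change, with 247, 241 and 228 CPM with hymeglusin and 292, 269 and 277 CPM with DMSO (log2 -0.22, adjusted p = 0.000213). Psmb4 showed the highest, at 355, 327 and 345 CPM with hymeglusin and 359, 330 and 332 CPM with DMSO, and did not pass the threshold (log2 0.01, adjusted p = 0.9).

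In the alpha ring, fold changes ran from log2 -0.12 for Psma7 to -0.57 for Psma8. The germ cell subunit Psma8 was rare in this line, at 4.09, 3.33 and 3.57 CPM with hymeglusin and 5.65, 4.97 and 5.70 CPM with DMSO (SE 0.16, adjusted p = 0.00342). Psma7, its counterpart in other tissues, stood at 218, 206 and 213 CPM with hymeglusin and 237, 222 and 234 CPM with DMSO (SE 0.048, adjusted p = 0.0314). Neither gene's groups overlapped. The call of Psma7 was lost in 8 of 17 alternative settings, and that of Psma8 in 1 of 16.

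In the cap, 1 of 6 ATPases passed the threshold. It was Psmc1, which fell, with 242, 250 and 243 CPM with hymeglusin and 297, 274 and 286 CPM with DMSO (log2 -0.22, SE 0.047, adjusted p = 0.000182). Psmc4 had the highest fold change of the ATPases, at 316, 292 and 323 CPM with hymeglusin and 305, 287 and 292 CPM with DMSO (log2 0.08, adjusted p = 0.193). Of the 8 lid genes, 6 fell. Psmd11 stood at 47.9, 50.9 and 50.8 CPM with hymeglusin and 60.4, 61.5 and 55.8 CPM with DMSO, without overlap (log2 -0.25, SE 0.060, adjusted p = 0.000826). Psmd8 was the lid gene that rose, with 321, 300 and 296 CPM with hymeglusin and 279, 272 and 277 CPM with DMSO (log2 0.15, SE 0.047, adjusted p = 0.00971).

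Psmd4 and Psmd14, which handle ubiquitin, did not pass the threshold. Psmd4, an intrinsic ubiquitin receptor, stood at 264, 241 and 273 CPM with hymeglusin and 242, 245 and 246 CPM with DMSO (log2 0.09, SE 0.049, adjusted p = 0.151). Psmd14, the lid enzyme that removes ubiquitin chains from substrates, stood at 150, 153 and 150 CPM with hymeglusin and 155, 151 and 150 CPM with DMSO (log2 -0.01, SE 0.048, adjusted p = 0.88). Both genes' groups overlapped. Of the 3 base subunits without ATPase activity, Psmd1, a scaffold, was the one that fell, with 307, 340 and 327 CPM with hymeglusin and 354, 360 and 364 CPM with DMSO (log2 -0.15, SE 0.047, adjusted p = 0.0102).

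All 5 activators that dock on the core in place of the 19S cap fell. Psme1, which with Psme2 forms the interferon-inducible activator PA28, stood at 166, 157 and 161 CPM with hymeglusin and 213, 203 and 204 CPM with DMSO (log2 -0.36, SE 0.048, adjusted p = 1.16e-07). Psme2 stood at 97.9, 95.2 and 99.4 CPM with hymeglusin and 121, 106 and 107 CPM with DMSO (log2 -0.19, SE 0.055, adjusted p = 0.00394). For both, all hymeglusin libraries lay below all DMSO libraries. Reads of Psme2 and its near copy Psme2b may have been split between them, so the level of each is uncertain. Psme2b stood at 39.1, 38.4 and 39.1 CPM with hymeglusin and 43.7, 42.7 and 43.5 CPM with DMSO (log2 -0.15, SE 0.063, adjusted p = 0.0397), and its call was lost in 13 of 17 alternative settings, both offsets for transcript length among them. The nuclear activator Psme3 stood at 179, 193 and 183 CPM with hymeglusin and 214, 206 and 213 CPM with DMSO (log2 -0.18, SE 0.048, adjusted p = 0.00174). Psme4 stood at 198, 225 and 198 CPM with hymeglusin and 246, 248 and 240 CPM with DMSO (log2 -0.24, SE 0.050, adjusted p = 0.000148). Psmf1, an inhibitor of the core also named PI31, went the other way without passing the threshold, at 52.6, 53.1 and 50.4 CPM with hymeglusin and 45.6, 47.5 and 49.9 CPM with DMSO (log2 0.13, SE 0.061, adjusted p = 0.088).

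Of the 7 assembly chaperones, 1 rose and 1 fell. Psmd9 stood at 45.0, 38.2 and 44.8 CPM with hymeglusin and 37.3, 35.5 and 38.7 CPM with DMSO, groups that overlapped (log2 0.20, SE 0.070, adjusted p = 0.0163). Psmd5, like Psmd9 a chaperone of the ATPase ring, stood at 162, 162 and 152 CPM with hymeglusin and 187, 174 and 169 CPM with DMSO (log2 -0.15, SE 0.051, adjusted p = 0.0114). Psmc3ip, a partner of the meiotic recombinases, stood at 20.9, 17.5 and 23.1 CPM with hymeglusin and 11, 12.5 and 11.5 CPM with DMSO. It rose by log2 0.81 (SE 0.099, adjusted p = 1.81e-08) and did so in all 17 alternative settings, though 21.2% of its exon bases overlap Mlx and the strand setting of the counting is not given.

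The 4 genes whose promoters are printed above differed in direction. Psmb5 fell and Psmd9 rose, both with TGACNNNGC in the bases shown. Of those with TGAGNNNGC there, Psmd12 stood at 132, 134 and 120 CPM with hymeglusin and 152, 149 and 145 CPM with DMSO and fell (log2 -0.21, SE 0.051, adjusted p = 0.000756). Psmd12 also holds TGACNNNGC outside the bases shown, on the other strand and 247 bases before its start. Psmb3 stood at 194, 186 and 192 CPM with hymeglusin and 212, 196 and 190 CPM with DMSO, groups that overlapped (log2 -0.06, SE 0.049, adjusted p = 0.303).

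**Figure D3:**
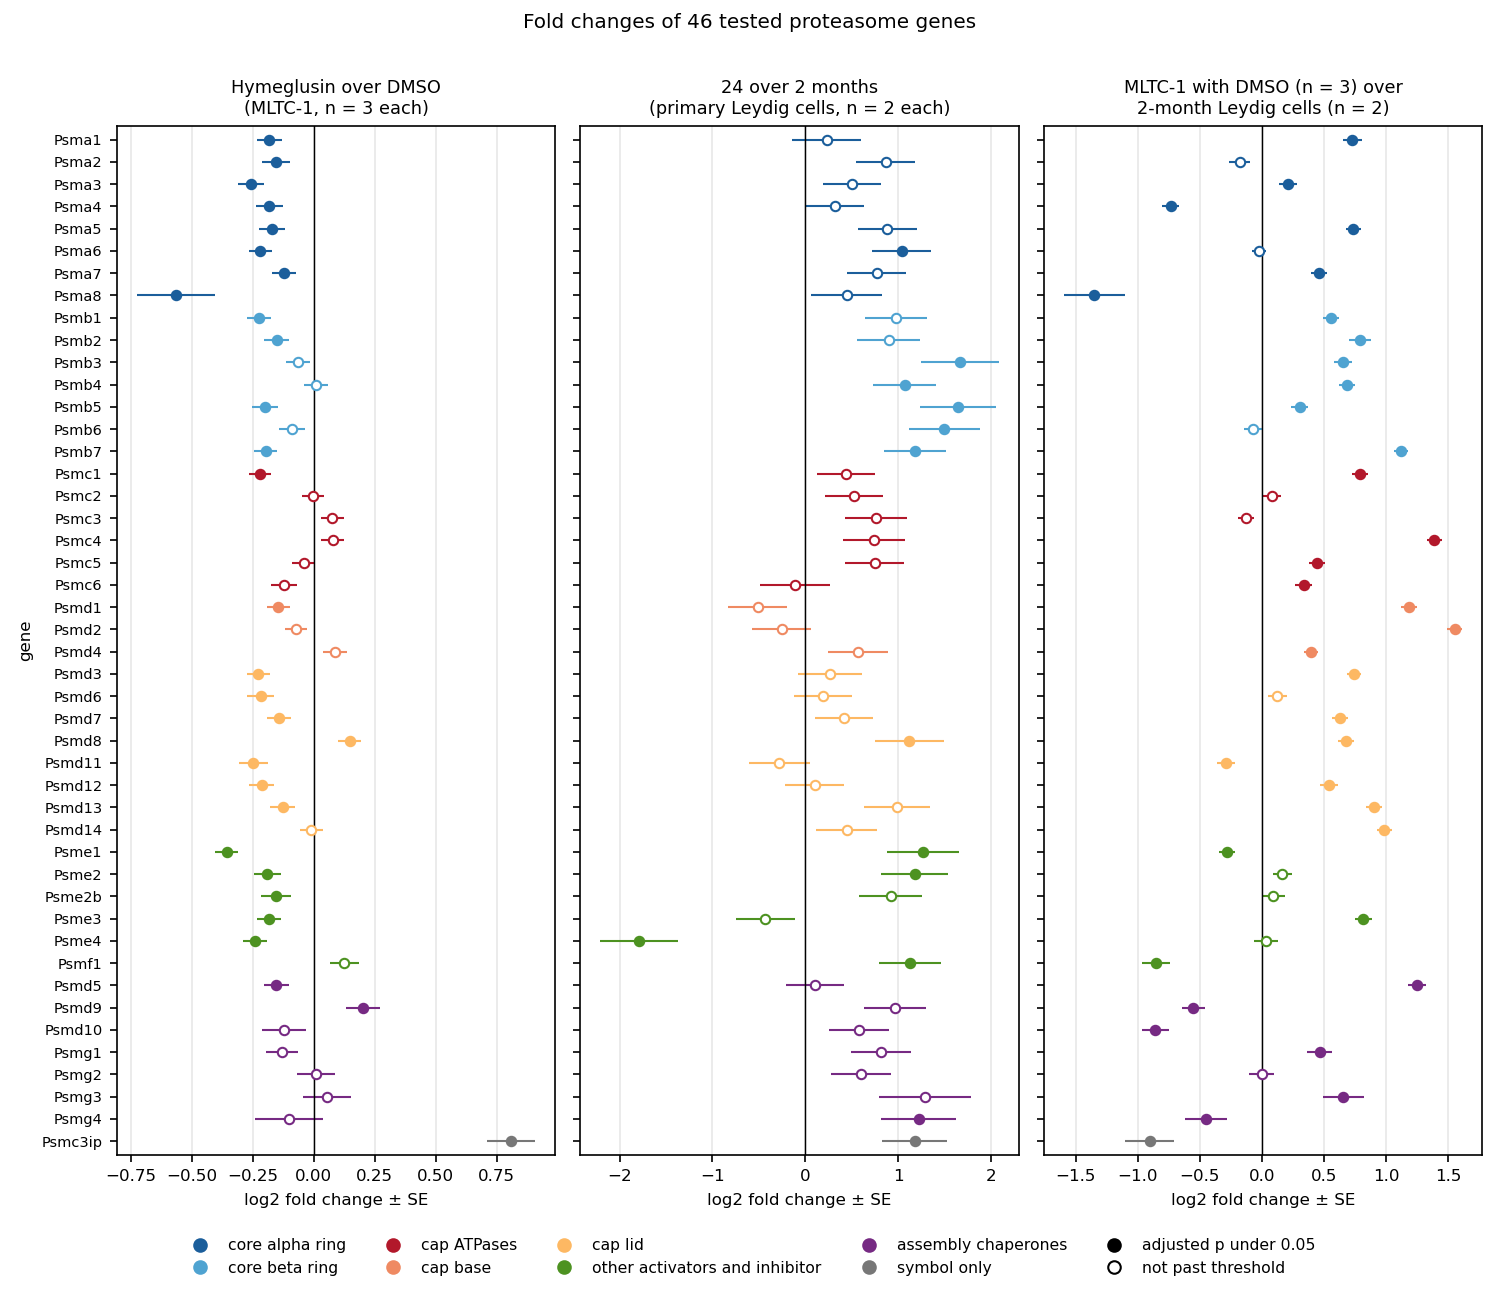
log2 fold change ± SE (horizontal axes, each panel on its own scale) of the 46 tested members (rows, coloured by role) for hymeglusin over DMSO, 24 over 2 months and MLTC-1 with DMSO over 2-month Leydig cells; filled points passed an adjusted p of 0.05. In the first panel all 8 alpha ring genes and 6 of 7 beta ring genes lie left of 0. In the second, where error bars are much wider, both rings and all 7 assembly chaperones lie right of 0.

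Other genes of the pathway were read from lists chosen alongside the members. Of the 3 immunoproteasome subunits, 2 rose. Psmb8, which takes the place of Psmb5, stood at 17.8, 14.9 and 16.4 CPM with hymeglusin and 5.65, 6.31 and 5.13 CPM with DMSO (log2 1.51, adjusted p = 2.18e-13). Psmb9, which takes the place of Psmb6, also rose (log2 0.38, adjusted p = 2.37e-05), and Psmb10, which takes that of Psmb7, did not pass the threshold (log2 0.02, adjusted p = 0.807). Counts of Psmb8 came to 16.8%, 15.1% and 15.7% of those of Psmb5 with hymeglusin, against 4.53%, 5.55% and 4.39% with DMSO. Of 7 genes, namely Nfe2l1, the related factor Nfe2l2 and 5 genes of Nfe2l1 processing, 4 fell and 1 rose, with Nfe2l1 itself at 328, 322 and 347 CPM with hymeglusin and 382, 407 and 400 CPM with DMSO (log2 -0.25, adjusted p = 2.61e-05). Vcp, the ATPase that pulls Nfe2l1 out of the endoplasmic reticulum membrane, fell by 0.22 on the log2 scale, and Syvn1, the ubiquitin ligase of that membrane, rose by 0.22.

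Of 12 ubiquitin genes and shuttles, 6 fell and 1 rose. Ubqln2, a shuttle that carries ubiquitinated proteins to the proteasome, stood at 163, 162 and 172 CPM with hymeglusin and 287, 298 and 275 CPM with DMSO (log2 -0.79, adjusted p = 1.01e-15). The polyubiquitin gene Ubb rose by log2 0.25 (adjusted p = 3.73e-05). Of 9 parts and helpers without a Psm symbol, Ecpas and Txnl1 fell (log2 -0.34 and -0.15) and Uchl5, a deubiquitinase of the cap, rose (log2 0.36).

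Scaling weighed on this comparison. With libraries scaled by their total counts alone, 8 members rose and 8 fell, while the median of all genes stood at log2 0.11 and that of the members at -0.04. Fitted and scaled together with the primary cells, whose replicates spread more, 0 members fell and 1 rose. The members' median log2 fold change there was -0.06, against -0.15 in the fit reported above. The parts of scaling and of spread in this were not tested.

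At 24 months a part of the core, PA28 and the inhibitor Psmf1 rose over 2 months and Psme4 fell, and fold changes went with transcript length, as they did over all genes. Of 46 tested members, 12 rose and 1 fell, where 13.5% of all 16381 tested genes rose and 15.1% fell. The median log2 fold change of the members was 0.75, against -0.01 over all tested genes, and 40 of 46 were above 0. In 35 members both 24-month libraries lay above both 2-month libraries and in 5 below both, where 35.9% of all tested genes lay above and 37.9% below. Calls took in 6 of 15 core genes (median log2 0.90), 5 of them in the beta ring, and 1 of 17 cap genes (median log2 0.44). The median of the beta ring was log2 1.18 and that of the alpha ring 0.64.

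The catalytic subunits rose together. Psmb5 stood at 368 and 172 CPM at 24 months, against 93.9 and 78.8 CPM at 2 months (log2 1.65, SE 0.41, adjusted p = 0.0213). Psmb6 stood at 454 and 253 CPM at 24 months, against 138 and 112 CPM at 2 months (log2 1.5, SE 0.38, adjusted p = 0.0221). Psmb7 stood at 443 and 331 CPM at 24 months, against 182 and 161 CPM at 2 months (log2 1.18, SE 0.33, adjusted p = 0.0293). All 24-month libraries lay above all 2-month libraries, with replicate 1 at 24 months the higher of its pair for each. The structural subunit Psmb3 had the largest fold of the core, with 497 and 228 CPM at 24 months, against 124 and 104 CPM at 2 months (log2 1.67, SE 0.42, adjusted p = 0.0213), and Psmb2 the lowest of the beta ring, with 188 and 138 CPM at 24 months, against 98.6 and 75.8 CPM at 2 months (log2 0.90, SE 0.34, adjusted p = 0.0718). In all 7 beta ring genes the groups did not overlap.

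In the alpha ring 1 of 8 genes rose, Psma6, at 330 and 289 CPM at 24 months, against 157 and 144 CPM at 2 months (log2 1.04, SE 0.32, adjusted p = 0.0377). Psma1 had the lowest fold change, at 80.3 and 142 CPM at 24 months, against 105 and 84.6 CPM at 2 months, groups that overlapped (log2 0.23, SE 0.37, adjusted p = 0.658). Psma8, the germ cell subunit, stood at 14.6 and 18.9 CPM at 24 months, against 9.45 and 15.2 CPM at 2 months, also with overlap (log2 0.45, SE 0.38, adjusted p = 0.39). Its counts came to 5.27% and 7.98% of those of Psma7 at 24 months, against 5.75% and 11% at 2 months. Markers of spermatocytes and spermatogonia, the germ cells before the spermatid stage, summed to 139 and 267 CPM at 24 months, against 219 and 351 CPM at 2 months, and within each age Psma8 was higher in the library with the higher sum. Their part in the level of Psma8 was not tested.

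The cap gave 1 call. The lid subunit Psmd8 stood at 432 and 241 CPM at 24 months, against 153 and 156 CPM at 2 months (log2 1.12, SE 0.37, adjusted p = 0.048). The ATPase with the highest fold change, Psmc3, stood at 482 and 352 CPM at 24 months, against 242 and 250 CPM at 2 months (log2 0.76, SE 0.33, adjusted p = 0.108), and that with the lowest, Psmc6, at 66.6 and 126 CPM at 24 months, against 112 and 96.0 CPM at 2 months (log2 -0.11, SE 0.38, adjusted p = 0.851). Of the ubiquitin-handling subunits, Psmd4 stood at 270 and 225 CPM at 24 months, against 178 and 156 CPM at 2 months (log2 0.57, adjusted p = 0.198). Psmd14 stood at 81.9 and 106 CPM at 24 months, against 74.6 and 63.6 CPM at 2 months (log2 0.44, adjusted p = 0.317). Both were above the 2-month libraries in both 24-month libraries without passing the threshold. The base scaffold Psmd1 went down without a call, at 106 and 94.1 CPM at 24 months, against 155 and 130 CPM at 2 months (log2 -0.51, SE 0.32, adjusted p = 0.241), and the lid subunit Psmd11 stood at 45.1 and 61.9 CPM at 24 months, against 67.8 and 62.2 CPM at 2 months (log2 -0.28, SE 0.33, adjusted p = 0.533).

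Psme4 was the member that fell. It stood at 38.8 and 84.6 CPM at 24 months, against 195 and 232 CPM at 2 months (log2 -1.79, SE 0.42, adjusted p = 0.0171), with the groups far apart. The other activators rose or did not pass the threshold. Psme1 stood at 712 and 378 CPM at 24 months, against 248 and 204 CPM at 2 months (log2 1.27, SE 0.39, adjusted p = 0.0377). Psme2 stood at 253 and 151 CPM at 24 months, against 95.5 and 83.3 CPM at 2 months (log2 1.18, SE 0.36, adjusted p = 0.0377). These PA28 genes are induced by interferon gamma, as are the immunoproteasome subunits. Psme3 stood at 77.4 and 82.1 CPM at 24 months, against 118 and 97.0 CPM at 2 months (log2 -0.43, SE 0.32, adjusted p = 0.317). The inhibitor Psmf1 stood at 193 and 143 CPM at 24 months, against 69.4 and 84.4 CPM at 2 months (log2 1.13, SE 0.33, adjusted p = 0.0341). Among the chaperones, Psmg4 was the one that rose, at 28.4 and 15.3 CPM at 24 months, against 10.2 and 8.46 CPM at 2 months (log2 1.22, SE 0.40, adjusted p = 0.0476). Psmg3 had the highest fold change and Psmd5 the lowest (log2 1.29 and 0.11), neither past the threshold (adjusted p = 0.0749 and 0.813). Psmc3ip stood at 48.5 and 39.8 CPM at 24 months, against 15.6 and 23.4 CPM at 2 months (log2 1.18, SE 0.35, adjusted p = 0.0339).

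Genes with short transcripts read higher at 24 months throughout the table. Spearman's rho of log2 fold change with the length of the longest transcript was -0.62 over 16025 genes and -0.44 over the 46 members, which share these 4 libraries. Members are short, with a median of 1851 bases against 3099 over all genes tested, and 31 of 46 fell in the 3 shortest of 10 equal classes of length, up to 2137 bases. The 3 shortest classes held 8, 14 and 9 members, and 50.8%, 31.0% and 16.8% of all genes in them rose. In the longest class 1.06% of genes rose. The shares over all tested genes given above are thus not matched to the members for length. Psme4 has the longest transcript of the members, 6491 bases.

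With an offset for each library's trend on length, 2 of 46 members rose and 0 fell, where 8.82% of all tested genes rose and 5.16% fell, and the members' median was -0.06. The 2 that rose were Psmb7 (log2 1.18, adjusted p = 0.0235) and Psmf1 (log2 1.54, adjusted p = 0.00832). Both have transcripts well above the members' median length, 2849 and 3809 bases, although the principal transcript of Psmb7 has 1160 and 11.8% of its exon bases overlap Nek6. Under this offset Psmb5 stood at log2 0.30, Psmb6 at 0.23, Psmb3 at 0.85, Psme1 at 0.80 and Psme4 at -0.67, and 24 of 46 members lay below 0, against 6 without it. Of the members called without it, Psma6, Psme2 and Psmg4 changed sign (-0.09, -0.08 and -0.43). With an offset for length and GC content, 7 members were called higher and 0 lower, where 12.3% and 8.68% of all tested genes were called. Of these, Psmb3, Psmb7 and Psmf1 were also called without an offset. Psma2, Psmc2, Psmd5 and Psmd9 were not, and the other members that rose without an offset lost their calls. Under the length offset, Spearman's rho with the longest transcript was -0.01 over all genes and 0.39 over the members. With the principal transcript it was 0.08 over the members. The offset thus did not leave the members free of a trend on the length it used.

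**Figure D4:**
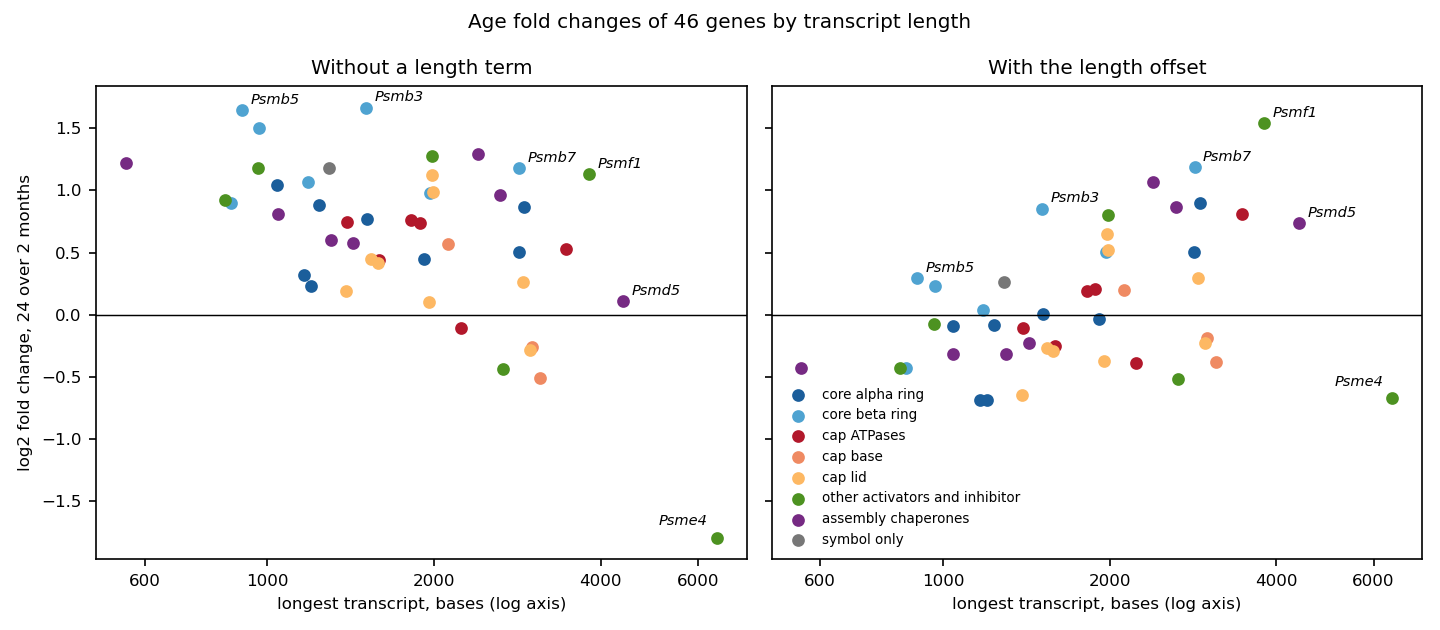
log2 fold change of 24 over 2 months (vertical axis) of the 46 tested members against the length of the longest transcript (horizontal log axis, bases), without a length term (left) and with the offset (right), coloured by role. Without the offset the points fall with length and Psme4, with 6491 bases, lies lowest at -1.79. With it the median is -0.06, Spearman's rho with length is 0.39 and Psmf1 is highest at 1.54.

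The spread between replicates also weighed on this comparison. Scaled by total counts, 0 members were called in either direction, with the median of all genes at log2 -0.21 and that of the members at 0.53. Without replicate 1 or 2 at 2 months 0 members rose, and without replicate 1 or 2 at 24 months 26 and 31 rose, the lone library left in a group being assumed to vary like the others.

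Immunoproteasome subunits rose at 24 months in 3 of 3. Psmb8 stood at 87.2 and 40.7 CPM at 24 months, against 13.0 and 10.7 CPM at 2 months (log2 2.43, adjusted p = 0.00888). Psmb9 stood at 44.8 and 29.0 CPM at 24 months, against 8.96 and 6.44 CPM at 2 months (log2 2.26, adjusted p = 0.00802). Psmb10 rose by log2 1.63 (adjusted p = 0.0142). With the length offset, Psmb8 and Psmb9 rose (log2 1.90 and 2.28, adjusted p = 0.00395 and 0.00115) and Psmb10 stood at log2 0.69 (adjusted p = 0.144), and with length and GC content the adjusted p of Psmb10 was 0.094. Counts of Psmb8 came to 23.7% and 23.6% of those of Psmb5 at 24 months, against 13.9% and 13.6% at 2 months, a ratio of 2 genes within each library. The sum of the macrophage markers was also higher at 24 months, as given above, where 5 of 10 rose and 2 had a log2 fold change below 0. Their part in these levels was not tested.

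Of the 7 genes of the Nfe2l1 list, Nfe2l2 included, 3 fell and 0 rose at 24 months, with Nfe2l1 at 176 and 197 CPM at 24 months, against 443 and 376 CPM at 2 months (log2 -1.14, adjusted p = 0.0298) and Sel1l, the partner of Syvn1, at 40.6 and 78.1 CPM at 24 months, against 307 and 246 CPM at 2 months (log2 -2.22, adjusted p = 0.00938). Among 9 parts and helpers without a Psm symbol, the small cap subunit Sem1 and the core chaperone Pomp rose (log2 1.24 and 1.04), and Ecpas and the ligase Ube3c fell (log2 -1.74 and -1.37). Neither Ecpas nor Ube3c passed the threshold with the length offset (log2 -0.49 and -0.57, adjusted p = 0.288 and 0.232) or with length and GC content. Calls of rises in this list also depended on the offset. Of the 9, 1 rose and 0 fell with the length offset, and 4 rose and 0 fell with length and GC content. Of 12 ubiquitin genes and shuttles, 3 rose, among them Ubb (log2 1.28), and 3 fell, among them Ubqln2 and Ubqln4 (log2 -1.35 and -0.98). With the length offset, 1 of 7 genes of the Nfe2l1 list fell, Sel1l, and Nfe2l1 stood at log2 -0.42 (adjusted p = 0.366). Of the 12 ubiquitin genes and shuttles, 1 rose and 1 fell under that offset, and Ubb stood at log2 0.47 (adjusted p = 0.342).

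The hymeglusin and age comparisons share no library, and their calls overlapped in part. Of the 26 members that fell with hymeglusin, 5 rose at 24 months (19.2%), where 26.1% of all tested members rose. These 5 made up 41.7% of the 12 that rose at 24 months, where 56.5% of all tested members fell with hymeglusin. Over the 12356 genes tested in both, 318 of the 3071 that fell with hymeglusin rose at 24 months (10.4%), where 10.5% of those genes rose. The 5 members were Psma6, Psmb5, Psmb7, Psme1 and Psme2. Psme4 fell in both, and Psmd8 and Psmc3ip rose in both.

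MLTC-1 cells with DMSO were set against primary cells of 2 months to describe the levels of the line. The line, its culture and the isolation of the primary cells cannot be told apart, and both groups also serve in the comparisons above. This fit took the same spread for both groups, although the 2-month replicates differed more. Chi-square per degree of freedom was 18.9 between them, against 3.44 to 7.06 between DMSO replicates. The SE and p-values here may thus be too small for the primary cells. In MLTC-1, 27 of 46 tested members were higher and 9 lower, where 34.4% of all 16092 tested genes were higher and 48.5% lower. Without overlap, 28 members stood higher and 10 lower, as did 37.7% and 51.7% of all tested genes. The median log2 fold change of the members was 0.42, against -0.27 over all tested genes. Higher members made up 10 of 15 core genes and 13 of 17 cap genes (median log2 0.46 and 0.63), and all 3 base subunits without ATPase activity were among them.

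Psmd2 stood highest over the primary cells, with 902, 917 and 921 CPM in MLTC-1 and 300 and 323 CPM at 2 months (log2 1.55, SE 0.059, adjusted p = 2.98e-08). The ATPase Psmc4 stood at 294, 277 and 282 CPM in MLTC-1 and 109 and 108 CPM at 2 months (log2 1.39, SE 0.059, adjusted p = 5.87e-08). The deubiquitinase Psmd14 stood at 150, 146 and 145 CPM in MLTC-1 and 77.0 and 71.2 CPM at 2 months (log2 0.99, SE 0.064, adjusted p = 7.33e-07), and the receptor Psmd4 at 233, 237 and 238 CPM in MLTC-1 and 183 and 175 CPM at 2 months (log2 0.40, SE 0.055, adjusted p = 0.00013). None of these 4 genes' groups overlapped. Psmc3 had the lowest fold change of the ATPases (log2 -0.13, adjusted p = 0.0999), and Psmd11 was the cap gene that was lower, at 58.2, 59.4 and 53.8 CPM in MLTC-1 and 69.9 and 69.8 CPM at 2 months (log2 -0.29, adjusted p = 0.00429).

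Of the 3 catalytic subunits, 2 were higher. Psmb7 stood at 393, 400 and 405 CPM in MLTC-1 and 187 and 180 CPM at 2 months (log2 1.12, SE 0.056, adjusted p = 1.47e-07). Psmb5 stood at 120, 110 and 113 CPM in MLTC-1 and 96.9 and 88.3 CPM at 2 months (log2 0.30, SE 0.070, adjusted p = 0.00304). Psmb6 stood at 129, 122 and 131 CPM in MLTC-1 and 142 and 126 CPM at 2 months and was not called (log2 -0.07, SE 0.071, adjusted p = 0.371). In the alpha ring Psma5 had the highest fold change, at 125, 121 and 120 CPM in MLTC-1 and 73.5 and 73.1 CPM at 2 months (log2 0.74, adjusted p = 3.27e-06). Psma8 had the lowest, at 5.45, 4.80 and 5.50 CPM in MLTC-1 and 9.75 and 17 CPM at 2 months (log2 -1.35, SE 0.25, adjusted p = 0.000704). Markers of spermatocytes and spermatogonia summed to 4.68 to 5.21 CPM in these MLTC-1 libraries and to 219 and 351 CPM at 2 months, with Spo11 and Piwil1 at 0 counts with DMSO, and their part in this difference was not tested.

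Other activators were mixed. Psme3 stood at 206, 199 and 205 CPM in MLTC-1 and 122 and 109 CPM at 2 months (log2 0.82, SE 0.067, adjusted p = 3.69e-06). Psmf1 stood at 44.0, 45.9 and 48.2 CPM in MLTC-1 and 71.6 and 94.6 CPM at 2 months (log2 -0.85, SE 0.11, adjusted p = 0.000106). Neither gene's groups overlapped. Psme1 was lower (log2 -0.28, adjusted p = 0.00298), and Psme2 and Psme4 were not called (log2 0.16 and 0.03, adjusted p = 0.0663 and 0.759). Among the chaperones Psmd5 was higher by log2 1.25 (adjusted p = 2.93e-07) and Psmd10, also named gankyrin, lower at log2 -0.86 (adjusted p = 8.27e-05). Psmc3ip was lower, at 10.6, 12.1 and 11.1 CPM in MLTC-1 and 16.1 and 26.2 CPM at 2 months (log2 -0.91, SE 0.20, adjusted p = 0.0023).

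The immunoproteasome subunits split, with Psmb9 higher in MLTC-1 (log2 1.94, adjusted p = 1.33e-06) and Psmb8 and Psmb10 lower (log2 -1.20 and -0.39, adjusted p = 0.000199 and 0.00375). Of 12 ubiquitin genes and shuttles 8 were higher, led by Ubqln2 (log2 1.95), and 4 lower, among them Ubb (log2 -0.64). Of the 7 genes of the Nfe2l1 list, 2 were higher and 3 lower, with Ddi2, the protease that activates Nfe2l1, at log2 1.62 and Nfe2l1 at -0.20. Of 9 parts and helpers, 4 were higher and 2 lower, with Ecpas at log2 1.14 and Uchl5 at -0.49. With the length offset, 44 members were higher and 1 lower, where 55.4% and 32.1% of all tested genes were called and their median stood at log2 0.59, and with length and GC content 44 and 0, where 55.8% and 32.0% were called. Of the 9 members called lower without an offset, 8 changed sign under both offsets, Psma8 and Psme1 among them, and Psmf1 did not. Spearman's rho of the members' fold changes with the longest transcript was 0.18 without an offset and -0.74 with the length offset. Over all genes it was 0.19 and -0.09. The length offset thus left a trend on length among the members.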

How the data were processed

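Counts per gene symbol, whole numbers deposited by the authors without normalization, were used for 10 libraries. RNA came from an RNeasy kit and libraries from a NEBNext Ultra kit, per the labels' protocols. Per the submitters' processing notes, the build was mm10 and the tools were featureCounts 2.0.6, HISAT2 2.2.1, FastQC 0.12.1 and fastp 0.23.4. Neither the annotation nor the strand setting used for counting is stated in the labels, so reads of overlapping genes cannot be told apart.

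Each comparison was fitted alone with edgeR 4.0.16 in R 4.3.3 (filterByExpr, minimum count 10 and total 15, TMM, robust quasi-likelihood F-test, two-sided, Benjamini-Hochberg over all tested genes, threshold 0.05) and checked on simulated counts. SE is the size of the log2 fold change divided by the square root of F. CPM beside a test is scaled within that comparison, and other levels over all 10 libraries. Lengths are of GENCODE M21 transcripts, and length offsets used loess (span 0.3, 2 passes). A count of 0 allows up to 3 counts, or 0.0862 to 0.172 CPM, for counting error only. Replicate pairs differed by more than sampling noise (chi-square per degree of freedom 3.44 to 134).

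Values per library are given for the catalytic, tissue-restricted, activator, inhibitor and ubiquitin-handling members, Psmc3ip, and the highest and lowest fold change of each role class, with up to 2 genes per direction of other lists. Some of these are given by fold change alone or are not reported here, and the libraries of Psmd12 and Psmb3 with hymeglusin were added for their printed promoters. Members, lists and rule were chosen with earlier results of these data known. Alternatives were scaling by total counts, upper quartile or RLE, limma-voom (limma 3.58.1), DESeq2 1.42.0, a count filter at 10 CPM or none, a block for the replicate number, all libraries in 1 fit, offsets for length and for length with GC content, other transcript lengths (the principal transcript added after seeing the data), and leaving out each library.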

Additional observations from a re-analysis of the deposited data

How the results depend on the processing

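Counts of members that rose or fell were within 1.5 times of those reported under RLE scaling, limma-voom, no count filter and the filter at 10 CPM. With hymeglusin, 5 rose under upper quartile scaling, 8 rose and 8 fell under total counts, and 1 rose and 0 fell in 1 fit of all libraries. Leaving out a library gave 1 to 5 higher and 19 to 25 lower. At 24 months, 20 rose under upper quartile scaling and 20 by DESeq2, 0 rose and 0 fell under total counts, 34 rose and 3 fell in 1 fit of all libraries, 2 rose and 0 fell with the length offset, and 7 rose and 0 fell with length and GC content. Leaving out a library there gave 0 to 31 higher and 0 to 5 lower. In MLTC-1 with DMSO against 2 months, 44 were higher and 1 lower with the length offset and 44 and 0 with length and GC content. The causes were not tested.

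With the length offset and with length and GC content, signs turned at 24 months for 18 and 19 of 46 members. Of those called, Psma6 (-0.091 and -0.044), Psme2 (-0.076 and -0.13) and Psmg4 (-0.43 and -0.51) turned under both, and Psmb4 with length and GC content. In MLTC-1 against 2 months signs turned for 13 members under both offsets, 8 of them called lower, among the 13 Psma8 (0.055 and 0.40), Psmb6 (2.81 and 2.92), Psmc3 (1.35 and 1.10), Psmc3ip (1.27 and 1.43), Psmd10 (1.07 and 1.45), Psmd11 (0.49 and 0.89) and Psme1 (1.07 and 0.66). With hymeglusin 0 and 2 turned, none of them called.

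The mean ratio of core to cap was 0.903 with hymeglusin, 0.954 with DMSO, 1.72 at 24 months and 1.16 at 2 months. With the median transcript it was 0.568, 0.592, 1.27 and 0.793, with CPM sums without length 0.596, 0.633, 1.17 and 0.779, and with the principal transcript 0.987 and 1.05 in the MLTC-1 groups, in the same order.

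Replicate numbers did not pair the samples, with correlations of the deviations of same-numbered libraries from -0.0073 to 0.0074 with hymeglusin and at -0.076 with age. With the replicate block, 3 rose and 27 fell with hymeglusin, 11 rose and 1 fell at 24 months, and 27 were higher and 8 lower in MLTC-1. With 2 libraries a group and a coefficient of variation of 0.307, the age comparison is the least precise.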
